A study of Mus musculus with 6 samples.

Results

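The genes described here make, modify and move cholesterol and fatty acids. They are 34 mouse genes chosen by name for that role, 6 of the mevalonate steps, 11 of the squalene and sterol steps, 3 regulators, 8 of fatty acid synthesis and desaturation and 6 of cholesterol efflux, turnover, esterification and lysosomal export. The probe-to-gene annotation used here gives 33 of them 75 probe sets, among 45101 probe sets on the chip, and lists none for Soat1, the cholesterol-esterifying enzyme. A probe set was kept where its mean signal reached 100 in at least 1 group, which left 60 probe sets and all 33 genes. The kept probe sets nearest to that limit had highest group means of 121 (Sc5d), 142 (Fads1) and 145 (Abca1), and the nearest of those left out had 75.7 (Cyp51) and 60.6 (Elovl6). Hippocampal RNA was measured on Affymetrix GeneChip Mouse Genome MG430 2.0 arrays in 3 groups of 2 chips, with RNA of 4 mice pooled for each chip. All mice were males on a C57BL/6 background that carried the Tg2576 transgene, which drives human APP695 with the Swedish mutation from the neuron-specific prion protein promoter, so no group is free of the transgene. The Tg-18mo-ACEI mice were 18 months old and had drunk captopril, which enters the brain and blocks the angiotensin-converting enzyme, in their water for 6 months at 20 mg/kg per day. The Tg-18mo mice were 18 months old, untreated and had a high plaque load. The Tg-12mo mice were 12 months old, untreated, and stood at the age at which treatment began, with a low plaque load.

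Brain cholesterol is made within the brain, because lipoproteins of the blood do not cross the blood-brain barrier. Enzymes from Hmgcs1 to Fdps build isoprenoids from acetyl-CoA, and those from Fdft1 to Dhcr7 turn them into cholesterol. Srebf2 and Srebf1 encode SREBP transcription factors that raise genes of sterol and of fatty acid synthesis, and Insig1 holds SREBP back in the endoplasmic reticulum when sterols are plentiful. Oligodendrocytes and astrocytes are the main producers in adult brain, and neurons remove surplus cholesterol with Cyp46a1, which hydroxylates it to a form that can leave the brain.

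Promoter windows from RefSeq (build GRCm38.p6) were available for 26 of the 34 genes. Each window held 300 bases, from 250 before to 50 after a transcript start, and some genes had several, 31 in all. The windows were searched on both strands for the sterol regulatory element core TCACCCCAC, its looser form TCACNCCAC, the NF-Y box CCAAT and the Sp1 box GGGCGG. The sterol element was found in 1 of the 26 genes (3.85%), Hmgcs1, whose match begins at position -137 from the start. Of all 27025 genes with a window 0.614% held it, and of tested genes 0.701%. The looser form was found in no further gene described here. Other spellings, and genes without a window, were not searched, so the count does not show which genes lack such an element. CCAAT was found in 22 of the 26 genes (84.6%), against 41.1% of all genes and 42.7% of the 9984 genes with a window that were tested on the chip. GGGCGG was also found in 22 of 26 (84.6%), against 38.2% of all genes and 69.1% of tested genes. Shown are the window with the sterol element (Hmgcs1), that of the gene with the largest fall in Tg-18mo-ACEI mice (Mvd) and those of a pair of regulators that differed in opposite directions between the ages (Srebf2 and Insig1). They lie at chr13:119690101-119690400 on the plus strand (Hmgcs1), chr8:122443373-122443672 on the minus strand (Mvd), chr15:82147019-82147318 on the plus strand (Srebf2) and chr5:28071162-28071461 on the plus strand (Insig1). Capitals mark the sterol element in Hmgcs1 and CCAAT, or ATTGG where it is read from the other strand.
Hmgcs1: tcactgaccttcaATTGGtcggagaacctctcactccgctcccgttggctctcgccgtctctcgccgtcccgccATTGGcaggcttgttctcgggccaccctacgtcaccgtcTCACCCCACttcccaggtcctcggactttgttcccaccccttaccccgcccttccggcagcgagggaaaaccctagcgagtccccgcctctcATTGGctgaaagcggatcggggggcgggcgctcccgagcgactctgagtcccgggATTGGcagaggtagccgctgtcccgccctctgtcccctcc
Mvd: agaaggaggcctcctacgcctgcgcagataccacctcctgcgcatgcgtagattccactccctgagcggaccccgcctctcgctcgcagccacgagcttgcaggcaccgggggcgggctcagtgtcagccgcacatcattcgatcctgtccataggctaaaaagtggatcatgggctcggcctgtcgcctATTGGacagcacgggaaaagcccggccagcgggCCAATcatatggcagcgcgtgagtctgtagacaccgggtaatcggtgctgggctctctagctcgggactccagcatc
Srebf2: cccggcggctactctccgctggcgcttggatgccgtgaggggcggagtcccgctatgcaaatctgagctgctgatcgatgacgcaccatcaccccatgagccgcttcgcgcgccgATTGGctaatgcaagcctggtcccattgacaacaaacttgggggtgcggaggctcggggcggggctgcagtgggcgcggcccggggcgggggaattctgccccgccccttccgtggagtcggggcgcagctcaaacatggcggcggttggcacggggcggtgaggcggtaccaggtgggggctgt
Insig1: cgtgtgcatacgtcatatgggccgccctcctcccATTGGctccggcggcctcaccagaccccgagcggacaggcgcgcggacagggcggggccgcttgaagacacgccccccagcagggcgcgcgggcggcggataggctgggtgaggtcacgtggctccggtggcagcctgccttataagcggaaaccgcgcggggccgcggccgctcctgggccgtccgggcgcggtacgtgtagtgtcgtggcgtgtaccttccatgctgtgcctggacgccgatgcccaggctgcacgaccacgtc

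The values are signals, 1 per probe set and chip, on a linear scale that the Affymetrix software brought to a common level. With the top and bottom 2 percent of values trimmed, each chip averaged 600. Differences are in log2 signal with their standard errors (SE), and a probe set was called higher or lower at an adjusted p under 0.05 (limma on all 6 chips, Benjamini-Hochberg over 23262 probe sets). The brightest kept probe set stands for a gene, by mean log2 signal over the chips. The labels name the 2 chips of a group as biological replicates, so a p-value here measures the spread between pools and not between mice, and 2 chips limit its precision. The chips differed by group in measures that no gene here sets. The 18S RNA probe set gave 2000 to 2214 on Tg-18mo-ACEI chips, 10219 to 11144 on Tg-18mo chips and 2121 to 2125 on Tg-12mo chips. The highest signal of a chip was 21934 to 23607 in Tg-18mo-ACEI mice, 24057 to 25102 in Tg-18mo mice and 39494 to 40190 in Tg-12mo mice. The ratio of the 3′ to the 5′ probe set of β-actin, a measure of RNA integrity, was 1.38 to 1.45 on Tg-18mo-ACEI chips, 1.88 to 1.98 on Tg-18mo chips and 1.77 to 1.83 on Tg-12mo chips. The same ratio of Gapdh varied less, at 0.854 to 0.855 on Tg-18mo-ACEI chips, 0.828 to 0.832 on Tg-18mo chips and 0.849 to 0.862 on Tg-12mo chips. The poly-A control probe sets averaged 423.08 to 429.99 on Tg-18mo-ACEI chips, 179 to 186 on Tg-18mo chips and 1243 to 1247 on Tg-12mo chips. The part of these measures in the differences described here was not tested.

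The plot of log2 signals by chip shows that the 33 genes did not move as a block in any comparison. Between Tg-18mo-ACEI and Tg-18mo mice, 6 of 33 genes were called higher and 8 lower, where 12.5% of all 12325 genes were called higher and 21.6% lower. By probe set, 9 of 60 were higher and 10 lower, against 15.9% and 17.7% of all probe sets. The median log2 difference was -0.11 over the 33 genes and -0.08 over all genes. Between Tg-18mo and Tg-12mo mice, 11 genes were higher and 7 lower, against 28% and 21% of all genes, and 22 probe sets were higher and 10 lower, against 25.9% and 21.5% of all probe sets. The median was 0.07 over the 33 genes and 0.06 over all genes. Between Tg-18mo-ACEI and Tg-12mo mice, 9 genes were higher and 8 lower, against 20.1% and 20.6% of all genes, and 18 probe sets were higher and 12 lower, against 22.3% and 17.7%. The median was -0.04, against 0.01 over all genes. The comparisons share chips, so they are not independent of each other.

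**Figure D1:**
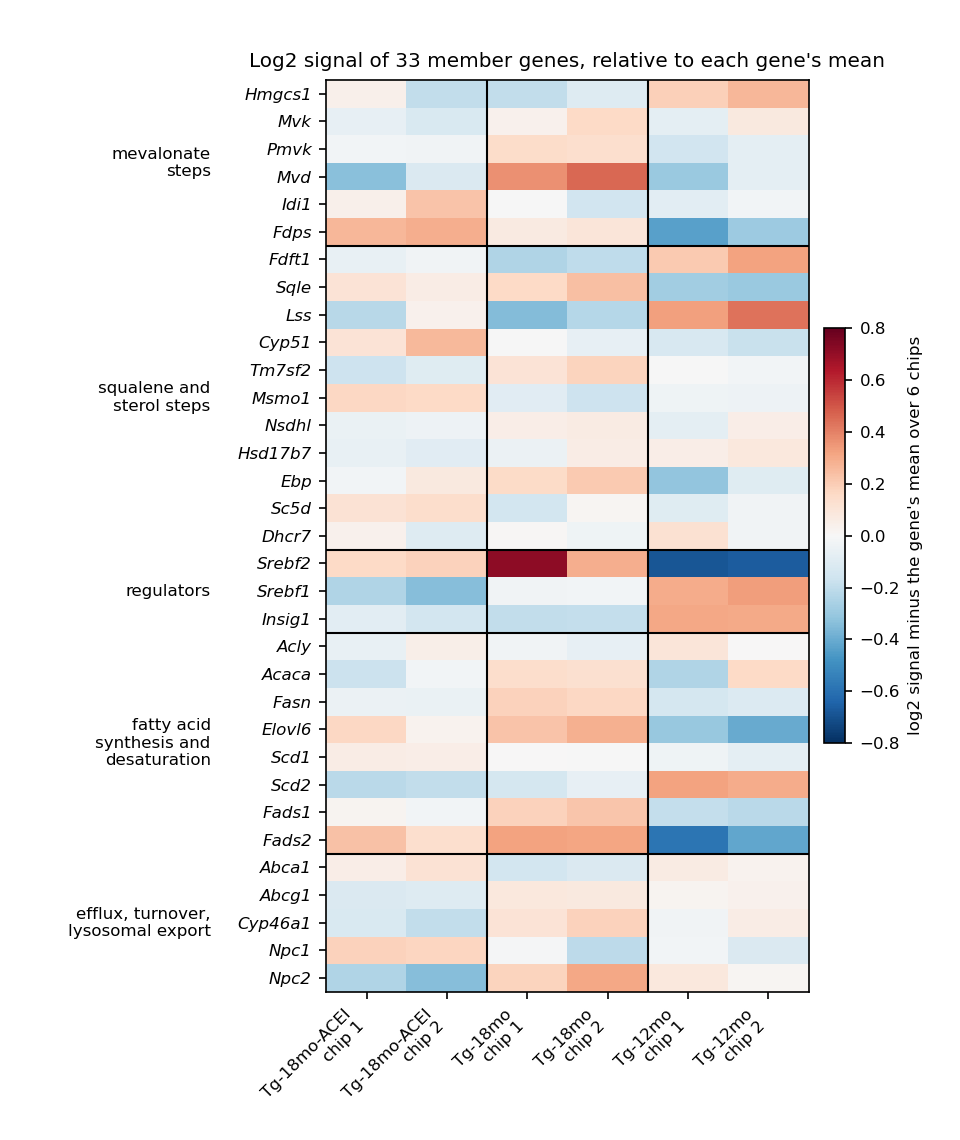
Log2 signal of the brightest probe set of 33 genes (rows, grouped by role) on each of 6 chips (columns), minus the gene's mean over the chips, with red above and blue below that mean. Srebf2, Fads2 and Elovl6 were lowest and Srebf1, Insig1 and Scd2 highest on the Tg-12mo chips, while Mvd and Npc2 were highest on the Tg-18mo chips. The direction of Scd2 against the Tg-12mo chips turned after quantile normalization.

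**Figure D2:**
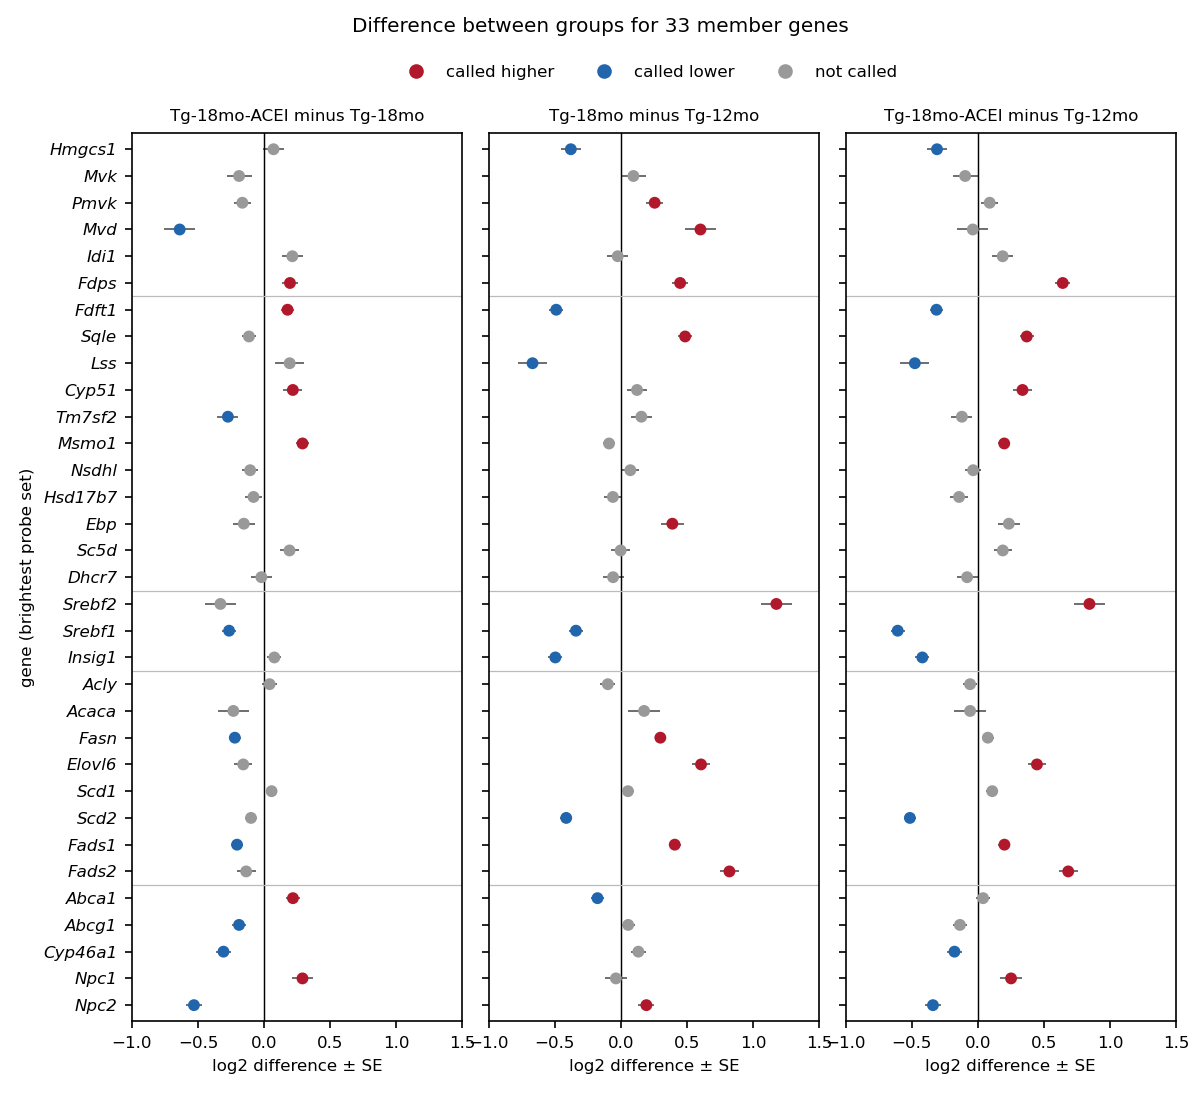
Log2 difference (points) and its standard error (bars) of 33 genes in the 3 comparisons, with called genes in red (higher) and blue (lower) and the others in grey. Called genes lie on both sides of 0 in each panel, with 6 higher and 8 lower in Tg-18mo-ACEI minus Tg-18mo, 11 and 7 in Tg-18mo minus Tg-12mo, and 9 and 8 in Tg-18mo-ACEI minus Tg-12mo.

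Of the 14 genes called with captopril, 8 lost the call on leaving out 1 chip, against 3 of 18 in Tg-18mo minus Tg-12mo and 7 of 17 in Tg-18mo-ACEI minus Tg-12mo. Leaving out the 2nd Tg-18mo-ACEI chip left 1 gene higher and 5 lower, and 2 probe sets higher and 6 lower. Leaving out the 1st Tg-18mo chip left 2 genes and 4 probe sets higher, and so did leaving out the 2nd. The calls that remained whichever of the 6 chips was left out were those of Msmo1, higher, and of Mvd, Npc2, Cyp46a1, Srebf1 and Fasn, lower. Dividing each chip by its median gave 7 genes higher and 6 lower. The plain t-test that the methods name called 0 of the 33 genes in this comparison after adjustment and, at an unadjusted p under 0.05, 5 higher and 10 lower. Counts over all genes for these omissions and this t-test are not given here. The losses are therefore not read as particular to the 33 genes. By the study's own thresholds (p of at most 0.01, a difference of at least 2-fold and a signal of at least 100) limma called 1 of the 60 probe sets higher and 0 lower with captopril, against 3.03% and 1.06% of all probe sets. That probe set is Scd2 1415824_at. In Tg-18mo minus Tg-12mo these thresholds gave 2 higher, both of Srebf2, and 1 lower, Scd2 1415824_at, against 2.57% and 1.78% of all probe sets, and in Tg-18mo-ACEI minus Tg-12mo 0 higher and 0 lower, against 2.05% and 1.24%.

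Markers of other cell types were called in these comparisons too. Of all genes, 12.5% were called higher and 21.6% lower in Tg-18mo-ACEI minus Tg-18mo. The shares were 28% and 21% in Tg-18mo minus Tg-12mo, and 20.1% and 20.6% in Tg-18mo-ACEI minus Tg-12mo. In RNA of a whole tissue fewer cells of a type and less RNA per cell cannot be told apart. Every tested marker gave a signal above 0 on every chip. Probe sets left out as too dim did so too, such as Fdps 1438150_at with group means of 0.676 to 1.72. A signal above 0 therefore does not show that a cell type was present. Sums of linear signals weigh the brightest probe sets most. Of kept probe sets averaging 10000 or more, 92.6% were called lower in Tg-18mo than in Tg-12mo mice. Their median log2 difference was -0.49, and -0.01 after quantile normalization. The part of scaling in the sums given here was not tested. Of 11 choroid plexus markers, 10 were lower in Tg-18mo-ACEI than in Tg-18mo mice, with summed signals of 21084 to 22997 on Tg-18mo-ACEI chips, 28745 to 31220 on Tg-18mo chips and 46999 to 47350 on Tg-12mo chips. Between Tg-18mo and Tg-12mo mice 4 of the 11 were higher and 2 lower, with a median log2 difference of 0.10, although the sum was lower in Tg-18mo mice. Of 8 meningeal markers 6 were lower in Tg-18mo-ACEI than in Tg-18mo mice. Their sums were 4278 to 4314 on Tg-18mo-ACEI chips, 8058 to 8203 on Tg-18mo chips and 9972 to 10017 on Tg-12mo chips. All 6 ependymal markers were lower in Tg-18mo-ACEI than in Tg-18mo mice. Their sums were 1425 to 1619 on Tg-18mo-ACEI chips, 2641 to 2927 on Tg-18mo chips and 2480 to 2538 on Tg-12mo chips. The part of these cells in the differences described here was not tested. Of 11 markers of myelinating oligodendrocytes, 2 were higher and 4 lower in Tg-18mo-ACEI than in Tg-18mo mice, and 3 were higher and 6 lower in Tg-18mo than in Tg-12mo mice. Their sums were 62893 to 64844 on Tg-18mo-ACEI chips, 68361 to 69838 on Tg-18mo chips and 90077 to 90356 on Tg-12mo chips. Of 8 astrocyte markers 3 were higher and 2 lower in Tg-18mo-ACEI than in Tg-18mo mice, and 2 were higher and 5 lower in Tg-18mo than in Tg-12mo mice. Of 9 microglial markers 2 were higher and 4 lower in Tg-18mo-ACEI than in Tg-18mo mice, 6 higher and 2 lower in Tg-18mo than in Tg-12mo mice, and 4 higher and 1 lower in Tg-18mo-ACEI than in Tg-12mo mice. The same counts were 2 and 0, 2 and 0, and 3 and 1 for 6 endothelial markers, and 1 and 2, 0 and 1, and 1 and 1 for 4 markers of oligodendrocyte precursors. Of 8 neuronal markers 0 were higher and 3 lower with captopril by limma (0 and 4 at an unadjusted p under 0.05). In Tg-18mo minus Tg-12mo 2 were higher and 4 lower, and in Tg-18mo-ACEI minus Tg-12mo 1 was higher and 6 lower. The neuronal sums were 77260 to 81187 on Tg-18mo-ACEI chips, 81208 to 85504 on Tg-18mo chips and 105308 to 106051 on Tg-12mo chips.

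Among the 6 genes of the mevalonate steps, Mvd and Fdps showed the clearest differences. Between Tg-18mo-ACEI and Tg-18mo mice 1 gene was higher and 1 lower, between Tg-18mo and Tg-12mo mice 3 were higher and 1 lower, and between Tg-18mo-ACEI and Tg-12mo mice 1 was higher and 1 lower. The shares of all genes called higher and lower were 12.5% and 21.6%, 28% and 21%, and 20.1% and 20.6% in these comparisons. Mvd, which decarboxylates mevalonate diphosphate, gave signals of 353 and 411 in Tg-18mo-ACEI mice, 574 and 612 in Tg-18mo mice and 362 and 422 in Tg-12mo mice. Both Tg-18mo chips lay above all others, and the Tg-18mo-ACEI and Tg-12mo chips overlapped. Mvd was 1.56-fold lower in Tg-18mo-ACEI than in Tg-18mo mice (log2 difference -0.64, SE 0.118, adjusted p = 0.00427) and 1.52-fold higher in Tg-18mo than in Tg-12mo mice (0.60, SE 0.118, adjusted p = 0.00345). Its other probe set differed in the same directions without a call (-0.31, adjusted p = 0.0826, and 0.29, adjusted p = 0.0804).

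Fdps, the farnesyl diphosphate synthase, gave 3164 and 3224 in Tg-18mo-ACEI mice, 2761 and 2818 in Tg-18mo mice and 1946 and 2150 in Tg-12mo mice. The 3 groups did not overlap and stood in the order Tg-18mo-ACEI, Tg-18mo, Tg-12mo from high to low. The log2 difference was 0.64 between Tg-18mo-ACEI and Tg-12mo mice (SE 0.0586, adjusted p = 8.85e-05), 0.45 between Tg-18mo and Tg-12mo mice (adjusted p = 0.000413) and 0.20 between Tg-18mo-ACEI and Tg-18mo mice (adjusted p = 0.0334). The last of these calls was lost on leaving out any single chip of the 18-month groups, with adjusted p between 0.0914 and 0.142. Pmvk, the phosphomevalonate kinase, was called in 1 comparison, at 0.26 higher in Tg-18mo than in Tg-12mo mice (SE 0.0649, adjusted p = 0.012), a call lost without either Tg-18mo chip (adjusted p = 0.063 and 0.0564) and after quantile normalization (0.16, adjusted p = 0.0849).

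Hmgcs1, which condenses acetyl units to HMG-CoA, has 4 kept probe sets that did not move together. The brightest, 1433443_a_at, gave 12446 and 10564 in Tg-18mo-ACEI mice, 10560 and 11286 in Tg-18mo mice and 13842 and 14568 in Tg-12mo mice. Both Tg-12mo chips lay above the others, and the groups of 18 months overlapped. The dimmest, 1433446_at, gave 2645 and 2644 in Tg-18mo-ACEI mice, 2566 and 2390 in Tg-18mo mice and 2126 and 2005 in Tg-12mo mice, and here both Tg-12mo chips lay below the others. Between Tg-18mo and Tg-12mo mice the 3 brighter probe sets were called lower (-0.38, -0.28 and -0.22) and the dimmest higher (0.26, adjusted p = 0.0056). Between Tg-18mo-ACEI and Tg-12mo mice the same 3 were called lower (-0.31, -0.19 and -0.17) and the dimmest higher (0.36, adjusted p = 0.00148). The lower call of the brightest probe set in Tg-18mo-ACEI mice was lost without the 2nd Tg-18mo-ACEI chip (adjusted p = 0.0679) and without the 2nd Tg-12mo chip (adjusted p = 0.074). None of the 4 was called between Tg-18mo-ACEI and Tg-18mo mice by limma (0.06 to 0.09 on the log2 scale, 0 at an unadjusted p under 0.05), while after quantile normalization 1433445_x_at was called higher (0.17, adjusted p = 0.0108).

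Mvk, the mevalonate kinase, and Idi1, the isomerase of isopentenyl diphosphate, were not called by their brightest probe sets. Mvk differed by -0.19, 0.09 and -0.10 in Tg-18mo-ACEI minus Tg-18mo, Tg-18mo minus Tg-12mo and Tg-18mo-ACEI minus Tg-12mo. Idi1 differed by 0.21, -0.02 and 0.19, and its dimmer probe set 1423804_a_at was called higher in Tg-18mo-ACEI than in Tg-18mo mice (0.41, SE 0.0967, adjusted p = 0.0122) and than in Tg-12mo mice (0.33, adjusted p = 0.0254). After quantile normalization the difference of that probe set to Tg-12mo mice was 0.23, without a call (adjusted p = 0.1).

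The 11 genes from squalene to cholesterol split as well. Between Tg-18mo-ACEI and Tg-18mo mice 3 were higher and 1 lower, between Tg-18mo and Tg-12mo mice 2 were higher and 2 lower, and between Tg-18mo-ACEI and Tg-12mo mice 3 were higher and 2 lower. For comparison, 12.5% and 21.6%, 28% and 21%, and 20.1% and 20.6% of all genes were called. With captopril, 1 of the 3 higher calls, that of Msmo1, held whichever chip was left out. Msmo1, the methylsterol monooxygenase, gave 4006 and 3985 in Tg-18mo-ACEI mice, 3351 and 3186 in Tg-18mo mice and 3485 and 3470 in Tg-12mo mice. Both Tg-18mo-ACEI chips lay above all 4 others. Its log2 difference was 0.29 between Tg-18mo-ACEI and Tg-18mo mice, a 1.22-fold change (SE 0.0472, adjusted p = 0.00234), and 0.20 between Tg-18mo-ACEI and Tg-12mo mice (adjusted p = 0.0101, and 0.0503 without the 1st Tg-18mo-ACEI chip). Cyp51, the lanosterol demethylase, has 2 kept probe sets. The dimmer, 1422533_at, was not called, at 0.27 in Tg-18mo-ACEI minus Tg-18mo, -0.26 in Tg-18mo minus Tg-12mo and 0.01 in Tg-18mo-ACEI minus Tg-12mo. The brighter gave 1106 and 1226 in Tg-18mo-ACEI mice, 1024 and 980 in Tg-18mo mice and 937 and 906 in Tg-12mo mice. On it the groups did not overlap. It was higher in Tg-18mo-ACEI than in Tg-18mo mice by 0.22 (SE 0.0724, adjusted p = 0.0488, and 0.0507 after quantile normalization) and than in Tg-12mo mice by 0.34 (adjusted p = 0.00637). With both probe sets averaged the latter difference was 0.17, without a call (adjusted p = 0.116). The smaller of these calls was lost without the 2nd Tg-18mo-ACEI chip (adjusted p = 0.274) and without either Tg-18mo chip (adjusted p = 0.101 and 0.215), and the larger without the 2nd Tg-18mo-ACEI chip (adjusted p = 0.0532).

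Tm7sf2, a sterol reductase, was the only gene of this branch called lower with captopril. Its signals were 536 and 564 in Tg-18mo-ACEI mice, 650 and 680 in Tg-18mo mice and 601 and 594 in Tg-12mo mice. Both Tg-18mo-ACEI chips lay below all others, and the log2 difference to Tg-18mo mice was -0.27 (SE 0.0789, adjusted p = 0.0285). Leaving out any single chip of those groups ended the call, with adjusted p between 0.0736 and 0.157.

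Fdft1, the squalene synthase, was called in opposite directions by its 2 kept probe sets between Tg-18mo-ACEI and Tg-18mo mice. The brighter, 1438322_x_at, gave 5941 and 6080 in Tg-18mo-ACEI mice, 5238 and 5394 in Tg-18mo mice and 7180 and 7760 in Tg-12mo mice, and was higher with captopril (0.18, SE 0.0514, adjusted p = 0.0294). The dimmer, 1448130_at, gave 3584 and 3536 in Tg-18mo-ACEI mice, 4100 and 4320 in Tg-18mo mice and 4068 and 3770 in Tg-12mo mice, and was lower with captopril (-0.24, SE 0.0543, adjusted p = 0.0103). On neither probe set did the chips of these groups overlap. The direction of Fdft1 with captopril therefore depended on the probe set, and the mean of both was -0.03 (adjusted p = 0.553). The brighter call was lost on leaving out any single chip of the 18-month groups (adjusted p between 0.0739 and 0.135). Against Tg-12mo mice the brighter probe set was lower in Tg-18mo mice (-0.49, adjusted p = 0.000132) and in Tg-18mo-ACEI mice (-0.31, adjusted p = 0.00175), while the dimmer was not called (0.10, adjusted p = 0.149, and -0.14, adjusted p = 0.075).

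Lss, which closes the rings of oxidosqualene to lanosterol, has 2 kept probe sets. By the probe sets that stand for the genes, it was lower in Tg-18mo than in Tg-12mo mice by more than any other of the 33. With both Lss probe sets averaged the difference was -0.20, without a call (adjusted p = 0.127). Its brighter probe set, 1426913_at, gave 427 and 508 in Tg-18mo-ACEI mice, 390 and 425 in Tg-18mo mice and 625 and 671 in Tg-12mo mice. All chips of 18 months lay below both Tg-12mo chips, at -0.67 in Tg-18mo mice (1.59-fold lower, SE 0.11, adjusted p = 0.00141) and -0.48 in Tg-18mo-ACEI mice (SE 0.11, adjusted p = 0.0093, and 0.0685 without the 1st Tg-18mo-ACEI chip). The dimmer probe set, 1420013_s_at, ran the other way, with 313 and 332 in Tg-18mo-ACEI mice, 273 and 281 in Tg-18mo mice and 228 and 232 in Tg-12mo mice. It was called higher in Tg-18mo-ACEI than in Tg-12mo mice (0.49, SE 0.118, adjusted p = 0.0115) and was not called between Tg-18mo and Tg-12mo mice (0.27, adjusted p = 0.092).

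Sqle, the squalene epoxidase, was higher in Tg-18mo than in Tg-12mo mice by 0.49 (SE 0.0518, adjusted p = 0.000142) and in Tg-18mo-ACEI than in Tg-12mo mice by 0.37 (adjusted p = 0.000757), and no omitted chip ended either call. Ebp, the sterol isomerase, was higher in Tg-18mo than in Tg-12mo mice by 0.39 (SE 0.0856, adjusted p = 0.00609). Nsdhl, Hsd17b7, Sc5d and Dhcr7, which remove methyl groups, reduce ketones and set or remove ring double bonds late in the pathway, were not called by their brightest probe sets, with differences between -0.14 and 0.19. Dimmer probe sets of Sc5d and Hsd17b7 were called. Sc5d 1434520_at gave 1194 and 1208 in Tg-18mo-ACEI mice, 1110 and 1007 in Tg-18mo mice and 600 and 610 in Tg-12mo mice, 1.75-fold higher in Tg-18mo than in Tg-12mo mice (0.81, SE 0.0714, adjusted p = 6.01e-05). Hsd17b7 1448865_at was higher in Tg-18mo-ACEI than in Tg-12mo mice by 0.73 (SE 0.141, adjusted p = 0.00391). It was also higher in Tg-18mo than in Tg-12mo mice by 0.46 (adjusted p = 0.0257). Hsd17b7 1417871_at was higher in Tg-18mo-ACEI than in Tg-18mo mice by 0.92 (SE 0.241, adjusted p = 0.0194). Its mean signals were low, at 183.8 in Tg-18mo-ACEI, 98.7 in Tg-18mo and 142.8 in Tg-12mo mice. The Tg-18mo mean lay below the limit of the filter on low signals. Between Tg-18mo and Tg-12mo mice 1417871_at differed by -0.55 without a call (adjusted p = 0.0913), opposite in direction to 1448865_at.

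All 3 regulators were called between Tg-18mo and Tg-12mo mice, 1 higher and 2 lower, where 28% and 21% of all genes were. Srebf2, the SREBP of sterol synthesis, gave 1579 and 1609 in Tg-18mo-ACEI mice, 2325 and 1729 in Tg-18mo mice and 882 and 893 in Tg-12mo mice. All chips of 18 months lay above both Tg-12mo chips, and the Tg-18mo chips differed from each other more than the chips of the other groups did. Srebf2 was 2.26-fold higher in Tg-18mo than in Tg-12mo mice (1.18, SE 0.117, adjusted p = 0.000103), the largest difference of the 33 genes in that comparison, and 1.8-fold higher in Tg-18mo-ACEI than in Tg-12mo mice (0.84, adjusted p = 0.000738). Its other probe set gave the same directions (1.02, adjusted p = 0.00013, and 0.93, adjusted p = 0.000272). Between Tg-18mo-ACEI and Tg-18mo mice the difference was -0.33 (SE 0.117, adjusted p = 0.0602) and -0.09 (adjusted p = 0.555).

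Srebf1, the SREBP gene tied mainly to fatty acid synthesis, gave 2124 and 1977 in Tg-18mo-ACEI mice, 2459 and 2467 in Tg-18mo mice and 3082 and 3156 in Tg-12mo mice. The groups did not overlap, with Tg-18mo-ACEI lowest and Tg-12mo highest. Srebf1 was lower in Tg-18mo-ACEI than in Tg-12mo mice by a log2 difference of -0.61 (SE 0.0534, adjusted p = 7.57e-05), in Tg-18mo than in Tg-12mo mice by -0.34 (adjusted p = 0.00108) and in Tg-18mo-ACEI than in Tg-18mo mice by -0.27 (adjusted p = 0.00627). Insig1 gave 1579 and 1510 in Tg-18mo-ACEI mice, 1460 and 1467 in Tg-18mo mice and 2067 and 2063 in Tg-12mo mice. Its chips of 18 months all lay below the Tg-12mo chips, with log2 differences of -0.50 in Tg-18mo mice (SE 0.0532, adjusted p = 0.000145) and -0.42 in Tg-18mo-ACEI mice (adjusted p = 0.000461), and the difference between both groups of 18 months was 0.08 (adjusted p = 0.295). No omitted chip ended a call of a regulator, and quantile normalization kept their directions.

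**Figure D3:**
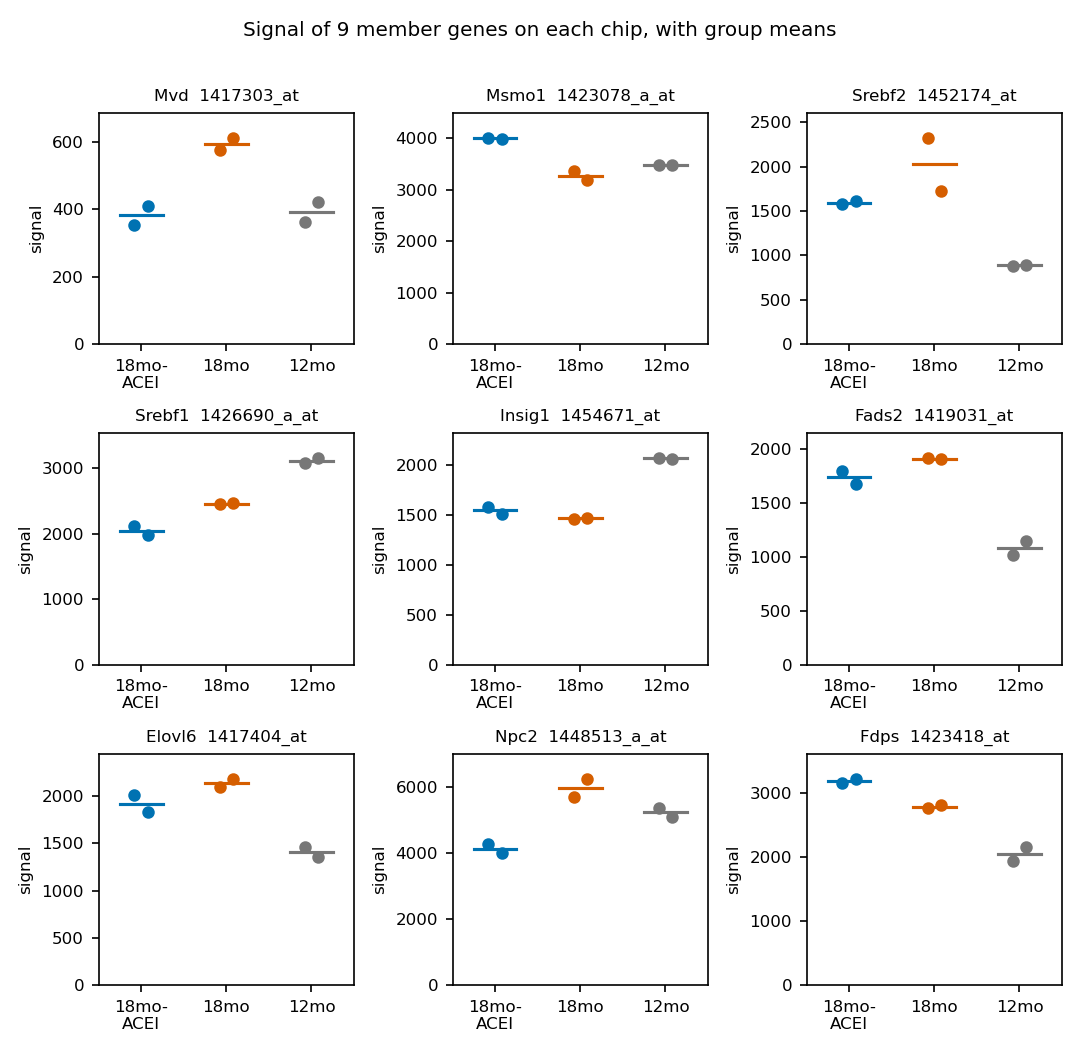
Signal (linear, from 0) of the brightest probe set of 9 genes on each chip, with points for chips and lines for group means, in Tg-18mo-ACEI, Tg-18mo and Tg-12mo mice. Mvd and Npc2 were highest in Tg-18mo mice, Msmo1 and Fdps were highest in Tg-18mo-ACEI mice, and Srebf2, Fads2 and Elovl6 had both 18-month groups above the Tg-12mo chips.

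Of the 8 genes of fatty acid synthesis and desaturation, 4 were higher and 1 lower in Tg-18mo than in Tg-12mo mice, where 28% and 21% of all genes were. In Tg-18mo-ACEI minus Tg-18mo 0 were higher and 2 lower by limma (0 and 3 at an unadjusted p under 0.05), where 12.5% and 21.6% of all genes were. Fads2, the delta-6 desaturase of polyunsaturated fatty acids, gave 1803 and 1681 in Tg-18mo-ACEI mice, 1918 and 1909 in Tg-18mo mice and 1022 and 1148 in Tg-12mo mice. Both groups of 18 months lay above the Tg-12mo chips, at 1.77-fold in Tg-18mo mice (0.82, SE 0.0707, adjusted p = 5.26e-05) and 1.61-fold in Tg-18mo-ACEI mice (0.68, adjusted p = 0.000162). Those values are of the brightest of 3 kept probe sets, 1419031_at. Of the others, 1449325_at was called higher in Tg-18mo (0.41, adjusted p = 0.0191) but not in Tg-18mo-ACEI mice (0.08, adjusted p = 0.631), and 1443838_x_at was not called (-0.18, adjusted p = 0.453, and -0.23, adjusted p = 0.37). The call of 1449325_at was lost after quantile normalization (0.31, adjusted p = 0.0548). Elovl6, which elongates palmitate, gave 2013 and 1830 in Tg-18mo-ACEI mice, 2100 and 2184 in Tg-18mo mice and 1458 and 1358 in Tg-12mo mice. It too had all chips of 18 months above the younger ones, with log2 differences to Tg-12mo mice of 0.61 in Tg-18mo mice (SE 0.0664, adjusted p = 0.000164) and 0.45 in Tg-18mo-ACEI mice (adjusted p = 0.00103). Its other probe set gave 0.59 and 0.31.

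Fads1, the delta-5 desaturase, and Fasn, the fatty acid synthase, were higher in Tg-18mo than in Tg-12mo mice and lower in Tg-18mo-ACEI than in Tg-18mo mice. Fads1 differed by -0.21 (SE 0.0449, adjusted p = 0.00913) in Tg-18mo-ACEI minus Tg-18mo and by 0.41 (adjusted p = 0.00017) in Tg-18mo minus Tg-12mo. The captopril call of Fads1 was lost without the 2nd Tg-18mo-ACEI chip (adjusted p = 0.0605) and without the 2nd Tg-18mo chip (adjusted p = 0.0663). Fads1 also stayed above Tg-12mo mice in Tg-18mo-ACEI mice, by 0.20 (adjusted p = 0.00769, and 0.0505 without the 1st Tg-18mo-ACEI chip). The dimmer Fads1 probe set, 1440444_at, was not called in any of these comparisons (-0.20, -0.15 and -0.35), and with both probe sets averaged neither the captopril difference (-0.20, adjusted p = 0.113) nor that between the ages (0.13, adjusted p = 0.268) was called. Fasn differed by -0.22 (SE 0.044, adjusted p = 0.00587) in Tg-18mo-ACEI minus Tg-18mo and by 0.30 (adjusted p = 0.000778) in Tg-18mo minus Tg-12mo, and no omitted chip ended these calls. Acly, Acaca and Scd1, which supply acetyl-CoA, make malonyl-CoA and desaturate stearate, were not called by their brightest probe sets, with differences between -0.23 and 0.17. The dimmer probe sets of Acly were called higher in Tg-18mo than in Tg-12mo mice (0.18, adjusted p = 0.00947, and 0.51, adjusted p = 0.00433).

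Scd2, the stearoyl-CoA desaturase of brain, had the probe sets that disagreed most among these genes. The brightest, 1415822_at, gave 16808 and 17023 in Tg-18mo-ACEI mice, 17642 and 18617 in Tg-18mo mice and 24389 and 23915 in Tg-12mo mice. The next, 1415823_at, gave 4974 and 5322 in Tg-18mo-ACEI mice, 4823 and 5038 in Tg-18mo mice and 4054 and 3843 in Tg-12mo mice. These 2 probe sets put the Tg-12mo chips at opposite ends, and neither was called between Tg-18mo-ACEI and Tg-18mo mice (-0.10, adjusted p = 0.13, and 0.06, adjusted p = 0.41). The third, 1415824_at, gave 5249 and 5058 in Tg-18mo-ACEI mice, 824 and 932 in Tg-18mo mice and 3602 and 3656 in Tg-12mo mice. Only on this probe set did the Tg-18mo chips stand apart, 5.88-fold below Tg-18mo-ACEI mice (log2 difference Tg-18mo-ACEI minus Tg-18mo 2.56, SE 0.0648, adjusted p = 3.05e-07) and 4.14-fold below Tg-12mo mice (Tg-18mo minus Tg-12mo -2.05, adjusted p = 1.41e-06). The annotation derives all 3 probe sets from a single transcript entry and gives no position along it. Over the 3 probe sets the difference between Tg-18mo-ACEI and Tg-18mo mice spanned 2.65 log2 units, a span exceeded by 0.658% of the 5474 genes with several kept probe sets, whose median span was 0.35. Between Tg-18mo and Tg-12mo mice the span was 2.37, exceeded by 0.877% of those genes, with a median of 0.48.

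**Figure D4:**
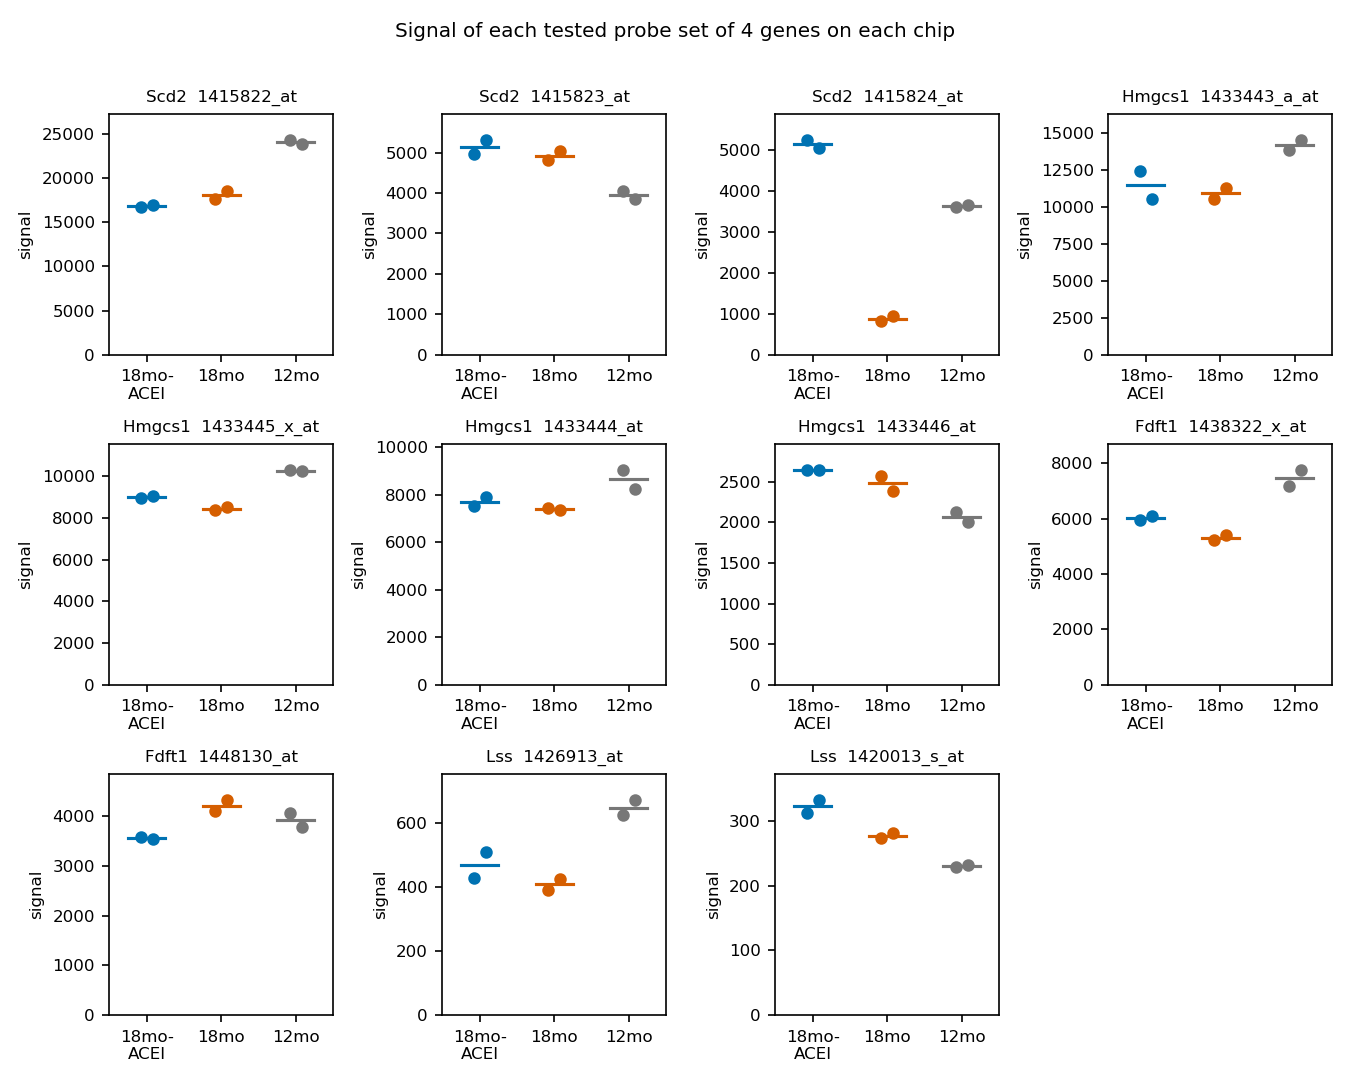
Signal (linear, from 0) of every kept probe set of Scd2, Hmgcs1, Fdft1 and Lss on each chip, with points for chips and lines for group means, in Tg-18mo-ACEI, Tg-18mo and Tg-12mo mice. On Scd2 1415824_at the Tg-18mo chips, at 824 and 932, lay below both other groups, and on the other Scd2 probe sets they did not. The dimmest Hmgcs1 and Lss probe sets ordered the ages opposite to the brighter ones.

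Directions against the Tg-12mo chips depended on scaling for the brightest probe sets. Of 633 kept probe sets whose signal averaged 10000 or more, 0.632% were called higher and 92.6% lower in Tg-18mo than in Tg-12mo mice, with a median log2 difference of -0.49. In Tg-18mo-ACEI minus Tg-12mo the median of that class was -0.55, with 95.1% called lower. After quantile normalization these medians were both -0.01. Dimmer classes were shifted the other way. In the classes under 2000 the Tg-18mo minus Tg-12mo median was 0.08 to 0.11, and 0.002 to 0.01 after quantile normalization. At signals of 500 to 1000, 35.8% were called higher and 17.3% lower in that comparison on the deposited signals. Scd2 1415822_at and Hmgcs1 1433443_a_at are in that class. In Tg-18mo minus Tg-12mo, Scd2 was at -0.41 (SE 0.046, adjusted p = 0.000174) on the deposited signals and at 0.24 (adjusted p = 0.00411) after quantile normalization, and Hmgcs1 was at -0.38 (adjusted p = 0.00397) and at -0.01 (adjusted p = 0.865). In Tg-18mo-ACEI minus Tg-12mo, Scd2 was at -0.51 (adjusted p = 8.17e-05) on the deposited signals and at 0.20 (adjusted p = 0.0115) after quantile normalization, and Hmgcs1 was at -0.31 (adjusted p = 0.0128) and at 0.14 (adjusted p = 0.122). The other 2 Hmgcs1 probe sets called lower on the deposited signals were not called lower after quantile normalization, at -0.04 (1433445_x_at) and -0.03 (1433444_at) in Tg-18mo minus Tg-12mo without a call, and at 0.13, now called higher (adjusted p = 0.0306), and 0.08 in Tg-18mo-ACEI minus Tg-12mo. The brighter Fdft1 probe set stayed lower in Tg-18mo than in Tg-12mo mice (-0.35, adjusted p = 0.000588) and was no longer called in Tg-18mo-ACEI minus Tg-12mo (-0.13, adjusted p = 0.0544). The fall of Scd2 1415824_at in Tg-18mo mice did not depend on the scaling (-2.07 after quantile normalization, adjusted p = 2.18e-06), nor, under that normalization, did the directions of Srebf2, Fads2, Elovl6, Lss, Insig1 and Srebf1.

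**Figure D5:**
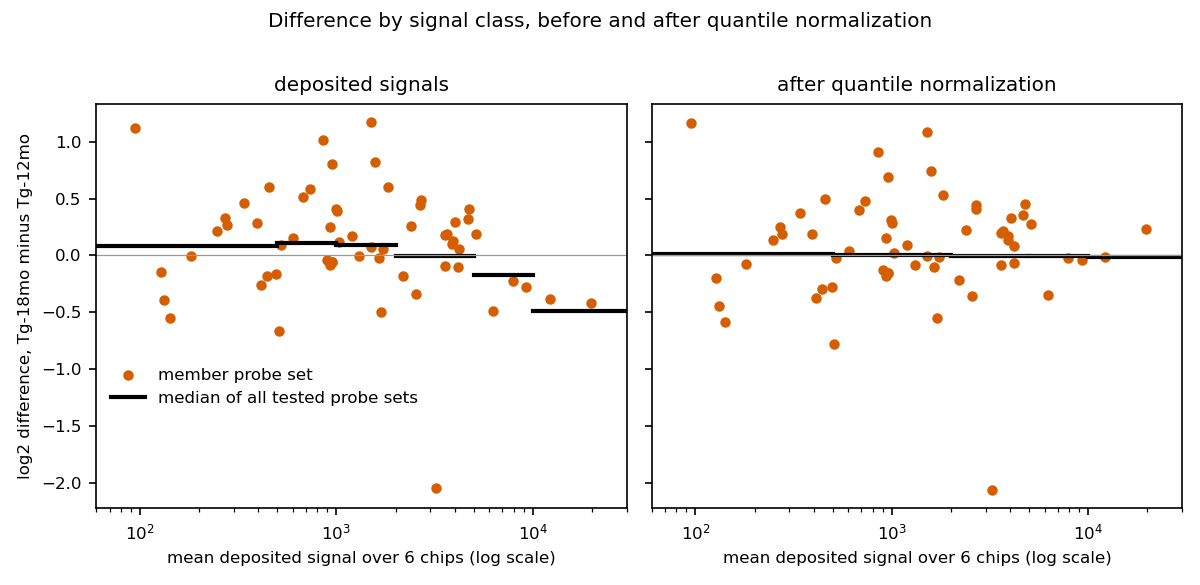
Log2 difference Tg-18mo minus Tg-12mo of the 60 kept probe sets (points) against their mean deposited signal over 6 chips (log axis), on deposited signals (left) and after quantile normalization (right), with black lines at the median of all kept probe sets in each signal class. On the left the median falls to -0.49 at signals of at least 10000, and on the right it is at -0.01. In the classes under 2000 it is 0.08 to 0.11 on the left and 0.002 to 0.01 on the right.

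The 5 measured genes of cholesterol export and turnover were all called between Tg-18mo-ACEI and Tg-18mo mice, 2 higher and 3 lower, where 12.5% and 21.6% of all genes were called. Leaving out a chip ended 3 of the 5 calls, those of Npc1, Abca1 and Abcg1. Npc2, which hands cholesterol on inside the lysosome, gave 4280 and 3985 in Tg-18mo-ACEI mice, 5704 and 6246 in Tg-18mo mice and 5355 and 5096 in Tg-12mo mice. Both Tg-18mo-ACEI chips lay below all others, 1.45-fold below Tg-18mo mice (-0.53, SE 0.0611, adjusted p = 0.000401) and 1.26-fold below Tg-12mo mice (-0.34, adjusted p = 0.00278). Probe set 1416901_at gave nearly the same differences (-0.51 and -0.33), and the dimmest, 1455768_at, was not called (-0.05 and 0.28). Npc2 was also higher in Tg-18mo than in Tg-12mo mice by 0.19 (adjusted p = 0.0307), a call lost without the 2nd Tg-18mo chip (adjusted p = 0.196) and without the 2nd Tg-12mo chip (adjusted p = 0.141). Npc1, its partner in the lysosomal membrane, gave 1015 and 1007 in Tg-18mo-ACEI mice, 887 and 771 in Tg-18mo mice and 877 and 822 in Tg-12mo mice. Here both Tg-18mo-ACEI chips lay above all others, by 0.29 over Tg-18mo mice (SE 0.0831, adjusted p = 0.028) and 0.25 over Tg-12mo mice (adjusted p = 0.0409). The call against Tg-18mo mice was lost without either Tg-18mo-ACEI chip (adjusted p = 0.108 and 0.107) or the 2nd Tg-18mo chip (adjusted p = 0.186), and that against Tg-12mo mice without any single chip of those groups (adjusted p between 0.0501 and 0.148) and after quantile normalization (0.15, adjusted p = 0.18).

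Cyp46a1, the neuronal cholesterol hydroxylase, gave 3576 and 3396 in Tg-18mo-ACEI mice, 4209 and 4420 in Tg-18mo mice and 3815 and 4064 in Tg-12mo mice. Both Tg-18mo-ACEI chips were the lowest, at -0.31 to Tg-18mo mice (SE 0.0547, adjusted p = 0.00357) and -0.18 to Tg-12mo mice (adjusted p = 0.0324, and 0.0511, 0.166 and 0.158 without the 1st or 2nd Tg-18mo-ACEI chip or the 2nd Tg-12mo chip). Abca1, which loads cholesterol onto apolipoproteins, gave 2271 and 2367 in Tg-18mo-ACEI mice, 1976 and 2012 in Tg-18mo mice and 2285 and 2225 in Tg-12mo mice. The Tg-18mo chips were lowest, with 0.22 in Tg-18mo-ACEI minus Tg-18mo (SE 0.051, adjusted p = 0.0122) and -0.18 in Tg-18mo minus Tg-12mo (adjusted p = 0.0204). Leaving out the 2nd Tg-18mo-ACEI chip (adjusted p = 0.0818) or either Tg-18mo chip (adjusted p = 0.0693 and 0.0533) ended the Abca1 call with captopril, and leaving out either Tg-18mo chip (adjusted p = 0.1 and 0.0655) or the 1st Tg-12mo chip (adjusted p = 0.0771) ended the call between the ages. Abcg1, which passes cholesterol to lipoproteins, was lower in Tg-18mo-ACEI than in Tg-18mo mice (-0.19, SE 0.0505, adjusted p = 0.0209), a call that no longer held when any single chip of those groups was left out (adjusted p between 0.0769 and 0.0941).

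A further 43 genes of these pathways were measured. In Tg-18mo-ACEI minus Tg-18mo 10 were higher and 16 lower, in Tg-18mo minus Tg-12mo 19 were higher and 9 lower, and in Tg-18mo-ACEI minus Tg-12mo 12 were higher and 9 lower, with medians of -0.17, 0.18 and 0.10. Of all genes 12.5% and 21.6%, 28% and 21%, and 20.1% and 20.6% were called. In the first of these comparisons 5 were higher and 12 lower without the 1st Tg-18mo-ACEI chip, 6 and 9 without the 2nd, 4 and 8 without the 1st Tg-18mo chip and 5 and 10 without the 2nd. Without the 2nd Tg-18mo-ACEI chip 6 were higher and 5 lower in Tg-18mo-ACEI minus Tg-12mo. Counts over all genes with a chip left out are not given here. Of 9 lipoprotein receptor and sterol transfer genes, 7 were higher and 2 lower in Tg-18mo minus Tg-12mo. In Tg-18mo-ACEI minus Tg-18mo 1 was higher and 6 lower, and leaving out the 1st Tg-18mo chip ended the lower calls of Vldlr, Scarb1, Osbp and Abcg4 and the higher call of Osbpl1a (adjusted p between 0.0563 and 0.243). In Tg-18mo minus Tg-12mo that omission also ended the higher calls of Lrp8 (0.70), Stard4 (0.27) and Osbp (0.23). Osbp was not called in that comparison after quantile normalization either (0.15, adjusted p = 0.108). Acacb, the mitochondrial acetyl-CoA carboxylase, gave 78.9 and 105 in Tg-18mo-ACEI mice, 233 and 267 in Tg-18mo mice and 91.5 and 95.9 in Tg-12mo mice. Its Tg-18mo chips stood above all others, at -1.46 in Tg-18mo-ACEI minus Tg-18mo and 1.41 in Tg-18mo minus Tg-12mo. It passed the filter on low signals only through the Tg-18mo group, with means of 91.8 in Tg-18mo-ACEI mice, 249.9 in Tg-18mo mice and 93.7 in Tg-12mo mice, so its differences are given as a description. Ggps1, which makes geranylgeranyl diphosphate from the Fdps product, gave 1336 and 1484 in Tg-18mo-ACEI mice, 735 and 736 in Tg-18mo mice and 1264 and 1199 in Tg-12mo mice. Its Tg-18mo chips stood below all others, at 0.94 in Tg-18mo-ACEI minus Tg-18mo (SE 0.0714, adjusted p = 4.49e-05) and -0.74 in Tg-18mo minus Tg-12mo (adjusted p = 8.53e-05), and all 4 of its kept probe sets were called in those directions.

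Abca2, a lipid transporter of oligodendrocytes, differed by -0.67 (adjusted p = 0.000371) in Tg-18mo-ACEI minus Tg-18mo and by 0.79 (adjusted p = 8.49e-05) in Tg-18mo minus Tg-12mo. Fa2h, which hydroxylates the fatty acids of myelin lipids, differed by 1.03 (adjusted p = 1.03e-05) in Tg-18mo minus Tg-12mo and by 0.56 (adjusted p = 0.00016) in Tg-18mo-ACEI minus Tg-12mo. Cpt2, of mitochondrial fatty acid oxidation, was lower in Tg-18mo-ACEI than in Tg-18mo mice by a log2 difference of -0.71 (adjusted p = 0.00996), a call lost without the 1st Tg-18mo-ACEI chip (adjusted p = 0.0628) or the 1st Tg-18mo chip (adjusted p = 0.0572). Me1, the malic enzyme that supplies NADPH for lipid synthesis, was higher in Tg-18mo-ACEI than in Tg-12mo mice by 0.66 (adjusted p = 0.000129). Vldlr, a lipoprotein receptor, was lower in Tg-18mo than in Tg-12mo mice by its brightest probe set (-0.77, adjusted p = 5.04e-05) and in Tg-18mo-ACEI mice also (-0.97, adjusted p = 2.69e-05), while its other 4 kept probe sets differed from the Tg-12mo chips by -0.56 to 0.90. Fabp5, a fatty acid binding protein, was lower in Tg-18mo-ACEI than in Tg-12mo mice on the deposited signals (-0.59, adjusted p = 3.21e-05) and was at -0.00 after quantile normalization (adjusted p = 0.992), with signals over 10000 like those of Scd2 and Hmgcs1.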

How the data were processed

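Hippocampal RNA of 6 pools, 2 in each of 3 groups and 4 mice in each pool, was hybridised to 1 chip per pool. The deposited values are probe set signal intensities on a linear scale, made by the authors with the Affymetrix GCOS software at a target value of 600. Each of the 6 columns holds 1 pool and averages 600 once the outer 2 percent on either side are set aside. Of 45101 probe sets, 45037 remained after control probe sets were left out, and 23262 had a mean intensity of at least 100 in at least 1 group. The probe-to-gene table covered 35890 probe sets, 34958 with 1 symbol and 932 with several, and none with several named a gene described here. All 34 genes were in the RefSeq gene table.

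Log2 intensities were fitted with limma 3.58.1 in R 4.3.3, with 3 group means over 6 chips, an intensity trend in the prior variance and Benjamini-Hochberg adjustment over the 23262 probe sets. There were 3 residual and 5.37 prior degrees of freedom. Figures and sequence searches used Python 3.11.15, pandas 2.3.3 and matplotlib 3.10.9. The fit was tested on simulated data. The genes, pathway lists, marker lists and tests were chosen with earlier results of these data known. Values on each chip were given, per comparison, for the 4 called genes with the largest difference in each direction and for genes with probe sets called in opposite directions. Sc5d 1434520_at and the study of probe sets within a gene were added after their values were seen. For the other pathway genes, the 4 called genes with the largest difference in each comparison were named. Alternatives were 32 added to each intensity, no filter, a mean of at least 200, quantile normalization, division by each chip's median, only the 2 groups compared, a replicate block, no trend, the methods' t-test on linear and log2 intensities, the thresholds of the study, leaving out each chip, averaging a gene's probe sets and the brightest probe set without a suffix letter. A comparison of protein sequences was not made here.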

Additional observations from a re-analysis of the deposited data

How the results depend on the processing

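Without the filter on low signals 3 genes were higher in Tg-18mo-ACEI than in Tg-18mo mice, and without the intensity trend 1 gene and 3 probe sets were, against 6 genes and 9 probe sets. The methods' t-test called 0 genes and 0 probe sets in either direction in Tg-18mo-ACEI minus Tg-18mo after adjustment, on linear and on log2 signals. In Tg-18mo minus Tg-12mo it called 0 genes higher and 1 lower on both scales, with 0 probe sets higher and 3 lower on linear and 1 higher and 3 lower on log2 signals. In Tg-18mo-ACEI minus Tg-12mo it called 1 gene and 2 probe sets higher and 0 lower on linear signals, and 0 in either direction on log2 signals. At an unadjusted p under 0.05 it called 10 genes higher and 7 lower in Tg-18mo minus Tg-12mo, and 11 and 7 in Tg-18mo-ACEI minus Tg-12mo, on linear signals. At the thresholds of the study it called, for the same 3 comparisons, 1 probe set higher and 0 lower, 1 and 1, and 0 and 0, and limma 1 and 0, 2 and 1, and 0 and 0. Averaging all probe sets of a gene gave 5 genes lower in Tg-18mo-ACEI than in Tg-12mo mice, against 8. Counts over all genes without the filter, without the trend, by the t-test or with a chip left out are not given here. The changes under those settings are therefore not read as particular to these genes.

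The median log2 difference over the genes in Tg-18mo minus Tg-12mo was 0.021 after quantile normalization, 0.13 with probe sets averaged and 0.13 with the brightest probe set without a suffix letter, and in Tg-18mo-ACEI minus Tg-12mo the last 2 settings gave 0.037 and 0.058. Quantile normalization turned the sign of Mvk (-0.023), Nsdhl (-0.0075), Scd2 (0.24) and Abcg1 (-0.0097) in Tg-18mo minus Tg-12mo, and of Hmgcs1 (0.14), Pmvk (-0.016), Scd2 (0.20) and Abca1 (-0.0043) in Tg-18mo-ACEI minus Tg-12mo. Division by each chip's median turned Dhcr7 (0.0093) in Tg-18mo-ACEI minus Tg-18mo. Averaging probe sets turned Fdft1 (-0.032), Hsd17b7 (0.37), Acly (-0.080) and Scd2 (0.84) in Tg-18mo-ACEI minus Tg-18mo, Cyp51 (-0.070), Sc5d (0.64), Acly (0.20) and Abcg1 (-0.053) in Tg-18mo minus Tg-12mo, and Lss (0.0055), Hsd17b7 (0.32), Acly (0.12), Scd2 (0.12) and Fads1 (-0.072) in Tg-18mo-ACEI minus Tg-12mo. The probe set without a suffix letter turned Fdft1 (-0.24), Hsd17b7 (0.27) and Acly (-0.057) in Tg-18mo-ACEI minus Tg-18mo, Fdft1 (0.10), Hsd17b7 (0.46) and Acly (0.18) in Tg-18mo minus Tg-12mo, and Hsd17b7 (0.73) and Acly (0.13) in Tg-18mo-ACEI minus Tg-12mo. In the settings that choose other probe sets the values come from other probes by construction, and elsewhere the cause was not tested.

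Leaving out 1 chip at a time gave 1 to 6 genes higher and 5 to 9 lower in Tg-18mo-ACEI minus Tg-18mo, 9 to 11 and 6 to 7 in Tg-18mo minus Tg-12mo, and 7 to 9 and 6 to 9 in Tg-18mo-ACEI minus Tg-12mo. For probe sets these ranges were 2 to 10 and 6 to 12, 16 to 21 and 8 to 12, and 15 to 18 and 8 to 12, and for the median log2 difference -0.13 to -0.072, 0.018 to 0.097 and -0.035 to 0.072. Genes without a call changed sign on leaving out a chip, with ranges over the 6 omissions, in Tg-18mo-ACEI minus Tg-18mo Hmgcs1 (-0.047 to 0.19), Dhcr7 (-0.090 to 0.048) and Acly (-0.014 to 0.096), in Tg-18mo minus Tg-12mo Idi1 (-0.10 to 0.052), Sc5d (-0.085 to 0.080), Dhcr7 (-0.14 to 0.016), Acaca (-0.026 to 0.38) and Npc1 (-0.14 to 0.063), and in Tg-18mo-ACEI minus Tg-12mo Mvd (-0.15 to 0.072), Nsdhl (-0.10 to 0.033) and Acaca (-0.26 to 0.14).

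The labels number the chips 1 and 2 in every group. Chips of the same number did not deviate together (correlations of deviations -0.03, -0.0519 and 0.0344), so the numbers were not treated as pairs. With the replicate number as a block, 5 genes were higher and 8 lower in Tg-18mo-ACEI minus Tg-18mo, 11 and 7 in Tg-18mo minus Tg-12mo, and 10 and 7 in Tg-18mo-ACEI minus Tg-12mo. For probe sets the block gave 8 and 10, 22 and 10, and 19 and 10. The block ended the calls of Cyp51 in Tg-18mo-ACEI minus Tg-18mo (adjusted p = 0.0704) and of Cyp46a1 in Tg-18mo-ACEI minus Tg-12mo (0.0513), added that of Ebp in Tg-18mo-ACEI minus Tg-12mo (0.0367), and changed no other call of the 33 genes.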
